A study of Mus musculus with 9 samples.

Results

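The comparison described here is that of C2C12 cells kept in butyrate with control C2C12 cells, read as RNA-seq counts per gene. C2C12 is a mouse myoblast line that divides in serum-rich medium and fuses into myotubes when serum is withdrawn. The comparison was defined by its libraries, the 3 labelled butyrate against the 3 labelled control, and so uses 6 of the 9 libraries of the series; the other 3, from cells given pentanoate, entered the statistical fit only to help estimate the spread between replicates. In the butyrate libraries, wild-type cells had been exposed to 750 µM butyric acid for 48 h, which the labels also give as day 2, once they had attached. The control libraries came from wild-type cells of the same line and day. The medium was the same throughout, DMEM with serum and antibiotics. What control cells were given in place of butyrate is not stated in the labels. The title of the series gives its question as the effect of both acids on myogenesis. The labels do not say whether the 3 replicates of a group were separate cultures. The p-values below measure the spread between these libraries, which may be partly technical.

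Butyrate is a short-chain fatty acid that gut bacteria make from dietary fibre. It enters cells through monocarboxylate transporters, is oxidised in mitochondria as acyl-CoA, and inhibits zinc-dependent histone deacetylases, so that acetyl groups build up on histone tails. Inhibitors of these enzymes are known to change the transcription of many genes in both directions and, in myoblasts, to act differently before and after the switch to differentiation medium.

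The butyrate libraries held 16798613, 16545507 and 16295320 counts, and the control libraries 17317580, 18102783 and 15829262. Of the 54697 lines of the count table, 14066 had enough counts to be tested. Among the defining myoblast markers, desmin (Des) had 954, 969 and 756 CPM in butyrate, against 952, 947 and 566 CPM in control, and the cadherin Cdh15 had 166, 155 and 110.3 CPM in butyrate, against 199.6, 207 and 88.97 CPM in control, so both were expressed in every library of either group. Not all these markers were steady: Myod1 and Chrna1 were lower in butyrate and Myf5 was higher, as described with the muscle genes below. On the first principal component of the 500 most variable genes, which held 71.1% of the variance, the butyrate libraries scored 18.25 to 24.07 and the control libraries -23.74 to -21.26. On the second component (16.3% of the variance) control 3 scored -18.29 and butyrate 3 scored -9.79, against 2.18 to 11.82 in the remaining libraries. Control 3 also had 3.95% of its counts in mitochondrial genes, against 1.96% to 2.32% in the other 5 libraries. The count of called genes is therefore also given without it. Levels below are counts per 1000000 (CPM) on scaled library sizes, in the order of replicates 1, 2 and 3. A gene is called where the adjusted p of edgeR's quasi-likelihood test is under 0.05, and all log2 changes are butyrate over control, with an approximate standard error (SE).

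Butyrate changed the level of 1601 of the 14066 genes, 11.4%. It raised 905 of them (6.43% of genes tested) and lowered 696 (4.95%). The rises were larger: the median log2 change was 1.15 among the raised genes and -0.57 among the lowered ones, beside -0.02 over all genes tested, and 517 raised genes but 129 lowered ones moved at least 2-fold. Size went with level, as the median log2 size of a call in either direction was 2.47 under 1 CPM and 0.58 between 10 and 100 CPM. At a mean of 10 CPM or more, 76 of 404 raised genes and 55 of 598 lowered ones moved at least 2-fold. In each of the 1601, no butyrate value overlapped any control value, which also held for 4089 genes tested (29.1%) whether called or not. The same-numbered butyrate and control libraries deviated together, and with the replicate number as a block the test raised 1516 genes (10.8%) and lowered 1400 (9.95%), among them all 1601. Without control 3, 1243 of 14394 genes were higher (8.64%) and 1042 lower (7.24%), 1449 of them among the 1601. The count fell to 753 without butyrate 2, to 827 without butyrate 3 and to 953 without control 1, and 642 genes, 464 higher and 178 lower, were called whichever library was left out. The split between higher and lower also moved with the scaling, as 56.5% of the calls were higher here and 68.8% with upper-quartile scaling.

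**Figure D1:**
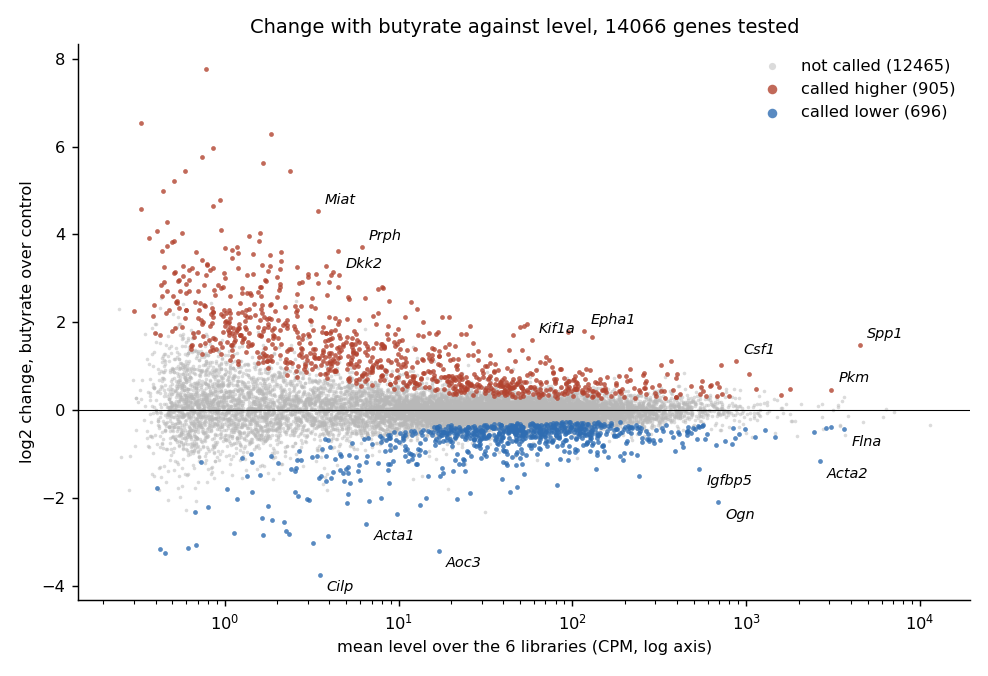
Log2 change (butyrate over control) of each of the 14066 genes tested against its mean CPM over the 6 libraries (log axis), with the 905 genes called higher and the 696 called lower in colour. Large rises lie at low levels on the left, and falls lie mostly at medium and high levels.

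Rises and falls lay at different levels of expression. Among the 1330 genes with a mean under 1 CPM, 111 were higher and 8 lower, and among the 3281 genes between 1 and 10 CPM, 390 were higher and 90 lower. The order was turned round above that: of 7068 genes between 10 and 100 CPM, 295 were higher and 425 lower, and of 2316 between 100 and 1000 CPM, 103 were higher and 165 lower. In all, 501 of the 905 raised genes averaged under 10 CPM, against 98 of the 696 lowered ones. The RNA that these genes account for nevertheless moved in both directions. The raised genes made up 6.14% to 6.66% of the summed CPM in the butyrate libraries, against 3.80% to 4.12% in the control libraries. The lowered genes made up 5.91% to 6.62% in butyrate, against 8.76% to 9.46% in control. Because these genes were picked by their calls, the separation of the groups in these shares was built in. In bulk libraries such as these, fewer cells of a kind and less RNA per cell cannot be told apart.

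**Figure D2:**
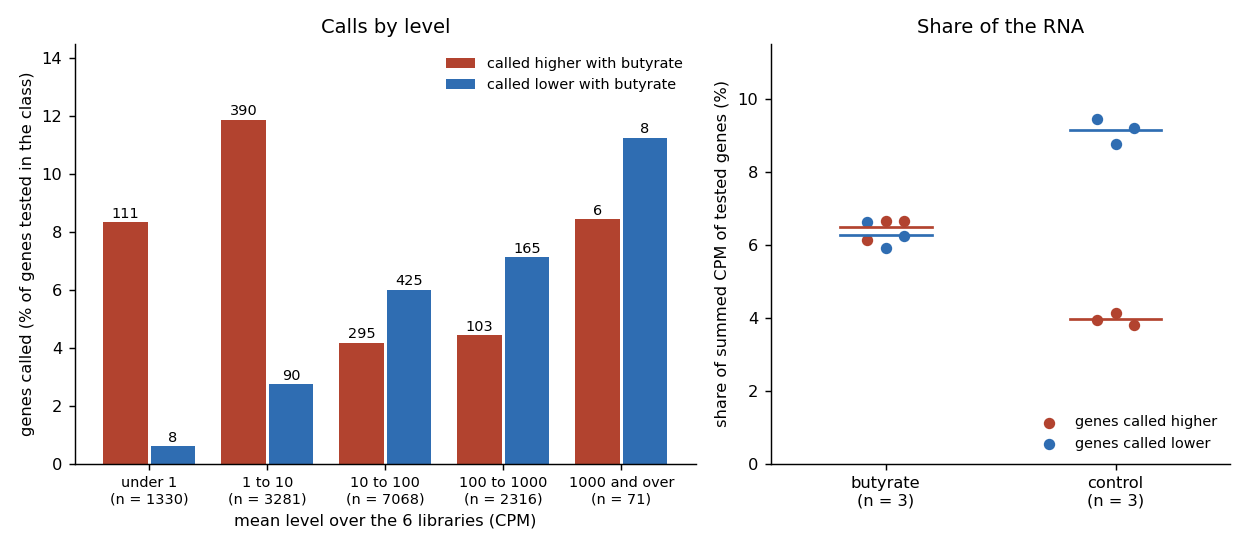
Genes called higher and lower in butyrate by mean CPM class, as percent of genes tested in the class, and the share of summed CPM held by the called genes in each library. Higher calls outnumber lower ones under 10 CPM and the reverse holds between 10 and 1000 CPM; the 3 butyrate libraries do not overlap the 3 control libraries in either share.

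A few abundant secreted and metabolic transcripts carried much of the gain. Osteopontin (Spp1, chromosome 5, 104435118 to 104441050, GRCm38), a secreted phosphoprotein that binds integrins, had 5809.6, 6482 and 7547 CPM in butyrate, against 2131, 2069.6 and 2899 CPM in control (log2 change 1.48, SE 0.14, adjusted p = 0.000245). Every butyrate library lay at 2 or more times every control library. Per kilobase of transcript it ranked 1st among the nuclear protein-coding genes tested in butyrate, at 4013 CPM per kilobase (RPKM), against 7th in control at 1436 RPKM. On its own it accounted for 17.7% of the summed CPM gained by the 905 raised genes. Csf1, the growth factor of macrophages, had 1082, 1426 and 1086 CPM in butyrate, against 525, 651 and 475 CPM in control (log2 change 1.12, SE 0.15, adjusted p = 0.00110). The membrane-anchored Ly6e had 892, 1006 and 979.5 CPM in butyrate, against 398, 445 and 575 CPM in control (log2 change 1.02, SE 0.13, adjusted p = 0.000783). In both genes the lowest butyrate value was well above the highest control value. Ldha, which converts pyruvate to lactate, had 1275, 1272 and 1442 CPM in butyrate, against 912, 939.8 and 1017 CPM in control (log2 change 0.48, SE 0.09, adjusted p = 0.00865). The ferritin heavy and light chains, which store iron, were also higher, Fth1 with 1877, 2231 and 2174 CPM in butyrate, against 1319, 1520.4 and 1636 CPM in control (log2 change 0.49, SE 0.10, adjusted p = 0.0121) and Ftl1 with 1163, 1507 and 1304 CPM in butyrate, against 749.7, 942 and 559.5 CPM in control (log2 change 0.82, SE 0.17, adjusted p = 0.0108). Fth1 lost its call without butyrate 2 or 3 (adjusted p = 0.0517 to 0.0548). Ftl1 lost its call without butyrate 2 (adjusted p = 0.0556).

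The loss of RNA was spread over more genes, since the 8 largest falls made up 24.5% of the summed CPM lost, against 34.6% of the gain for the 8 largest rises. Smooth muscle actin (Acta2, chromosome 19, 34241090 to 34255336), which cultured myoblasts also express, had 1770.5, 1645 and 1487 CPM in butyrate, against 3904, 3744 and 3365 CPM in control (log2 change -1.17, SE 0.10, adjusted p = 0.000161). It stood at 918 RPKM in butyrate (rank 16) and at 2061 RPKM in control (rank 3). Osteoglycin (Ogn, chromosome 13, 49608046 to 49624501), a small leucine-rich proteoglycan of connective tissue, had 316, 159.9 and 304 CPM in butyrate, against 855, 644 and 1853 CPM in control (log2 change -2.10, SE 0.39, adjusted p = 0.00673). The control libraries spread widely, with control 3 the highest, yet all 3 lay above the 3 butyrate libraries. The fall of Ogn was also called without control 3 (adjusted p = 0.0269).

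The largest rises among protein-coding genes that averaged at least 20 CPM were in genes of varied function. Epha1 (chromosome 6, 42358487 to 42373268), a receptor tyrosine kinase for A-type ephrins, had 190.5, 191 and 160.0 CPM in butyrate, against 62.8, 49.1 and 44.1 CPM in control (log2 change 1.80, SE 0.14, adjusted p = 0.000111). Cadm4, an adhesion molecule of the immunoglobulin family, had 185, 207 and 195 CPM in butyrate, against 68.2, 73.1 and 44.5 CPM in control (log2 change 1.66, SE 0.17, adjusted p = 0.000320). Kif1a (chromosome 1, 93015464 to 93101951), a motor that carries vesicles along microtubules in neurons, had 81.02, 93.8 and 88.4 CPM in butyrate, against 27.6, 30.4 and 28.9 CPM in control (log2 change 1.60, SE 0.09, adjusted p = 2.00e-05). These 3 genes had tight replicates, with every butyrate library at more than 2 times every control library. Rises of similar size were seen in the pattern-recognition protein Ptx3 (log2 change 1.92, SE 0.25, adjusted p = 0.00104), the neutrophil chemokine Cxcl5 (log2 change 1.90, SE 0.38, adjusted p = 0.00937), the acyl-CoA synthetase Acsbg1 (log2 change 1.73, SE 0.14, adjusted p = 0.000111) and Ndrg2 (log2 change 1.54, SE 0.14, adjusted p = 0.000222). Hmga1, a chromatin protein that bends AT-rich DNA, had 66.7, 108 and 86.7 CPM in butyrate, against 21.1, 34.4 and 11.99 CPM in control (log2 change 1.95, SE 0.34, adjusted p = 0.00512). Its near-identical copy Hmga1b moved in parallel (log2 change 1.78, SE 0.24, adjusted p = 0.00122), and since reads may be shared between the copies, the value of each is uncertain.

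Several of the largest falls among genes at 20 CPM or more were in receptors and proteases at the cell surface. Cxcr4, the receptor for the chemokine Cxcl12, had 14.7, 8.399 and 9.52 CPM in butyrate, against 48.04, 37.99 and 35.2 CPM in control (log2 change -1.89, SE 0.22, adjusted p = 0.000565). Itga11 (chromosome 9, 62677826 to 62783982), the alpha subunit of a collagen-binding integrin, had 19.7, 15.1 and 21.8 CPM in butyrate, against 83.8, 53.5 and 68.6 CPM in control (log2 change -1.86, SE 0.20, adjusted p = 0.000372). Adam12 (chromosome 7, 133883199 to 134232146), a membrane metalloprotease that has been linked to myoblast fusion, had 22.97, 22.96 and 20.1 CPM in butyrate, against 72.6, 81.1 and 69.5 CPM in control (log2 change -1.76, SE 0.12, adjusted p = 4.85e-05). For these genes the control libraries were all more than 2 times any butyrate library. Other falls in this class were those of the semaphorin receptor Plxna2 (log2 change -1.72, SE 0.24, adjusted p = 0.00167), the secreted protein C1qtnf3 (log2 change -2.03, SE 0.30, adjusted p = 0.00228), the immunoglobulin-domain protein Islr (log2 change -1.49, SE 0.16, adjusted p = 0.000375) and the glutamate transporter Slc1a3 (log2 change -1.35, SE 0.15, adjusted p = 0.000514).

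**Figure D3:**
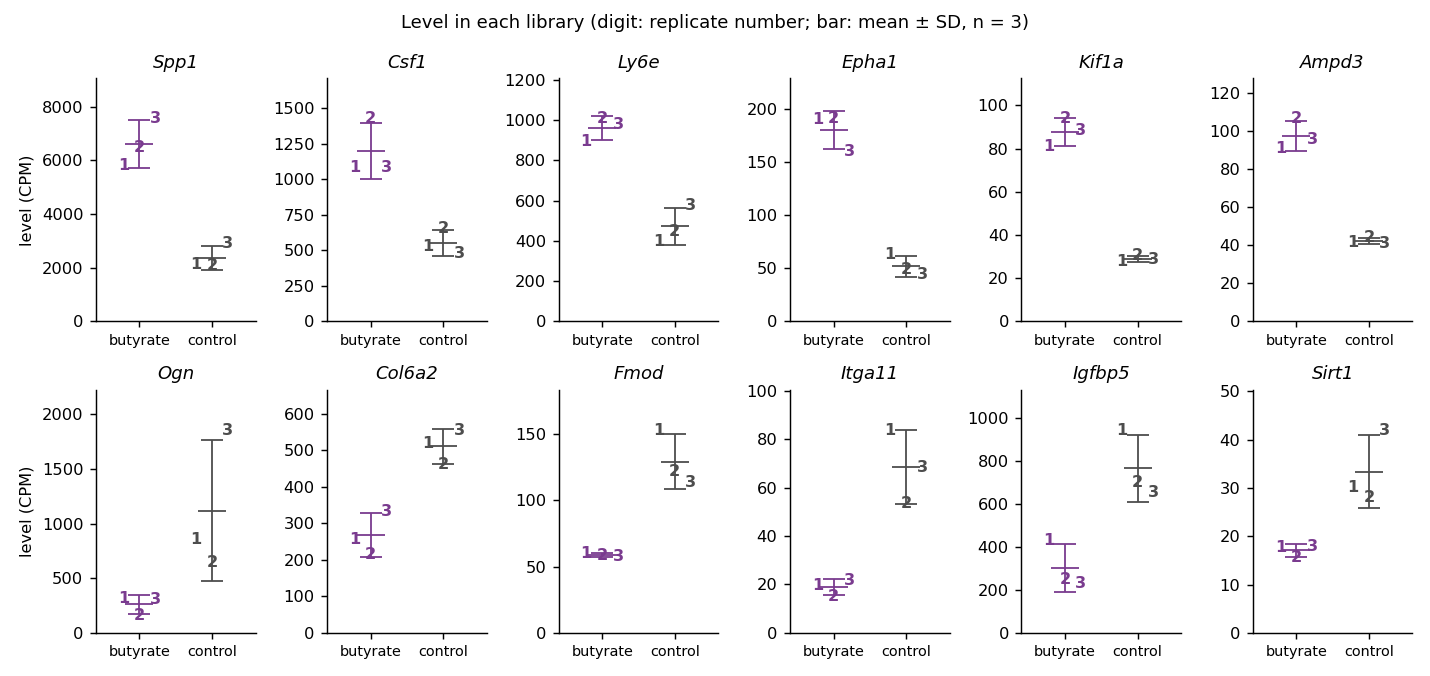
CPM in each of the 3 butyrate libraries (left in each panel) and the 3 control libraries (right) for 6 raised and 6 lowered genes, each library shown by its replicate number, with the mean and SD of each group. The groups do not overlap in any panel, and the spread is widest for Ogn in control.

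The results for groups of related genes are given against the background stated above, in which 6.43% of genes tested were raised and 4.95% lowered, with a median log2 change of -0.02. Where the replicate block, or leaving out control 3, moved the count of higher or lower genes in a group by over 1.5 times, or to or from 0, its counts follow in parentheses. Where a named call was lost once 1 of the 6 libraries was left out, this is given in the same paragraph; the other named calls were kept in all 6 such fits.

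**Figure D4:**
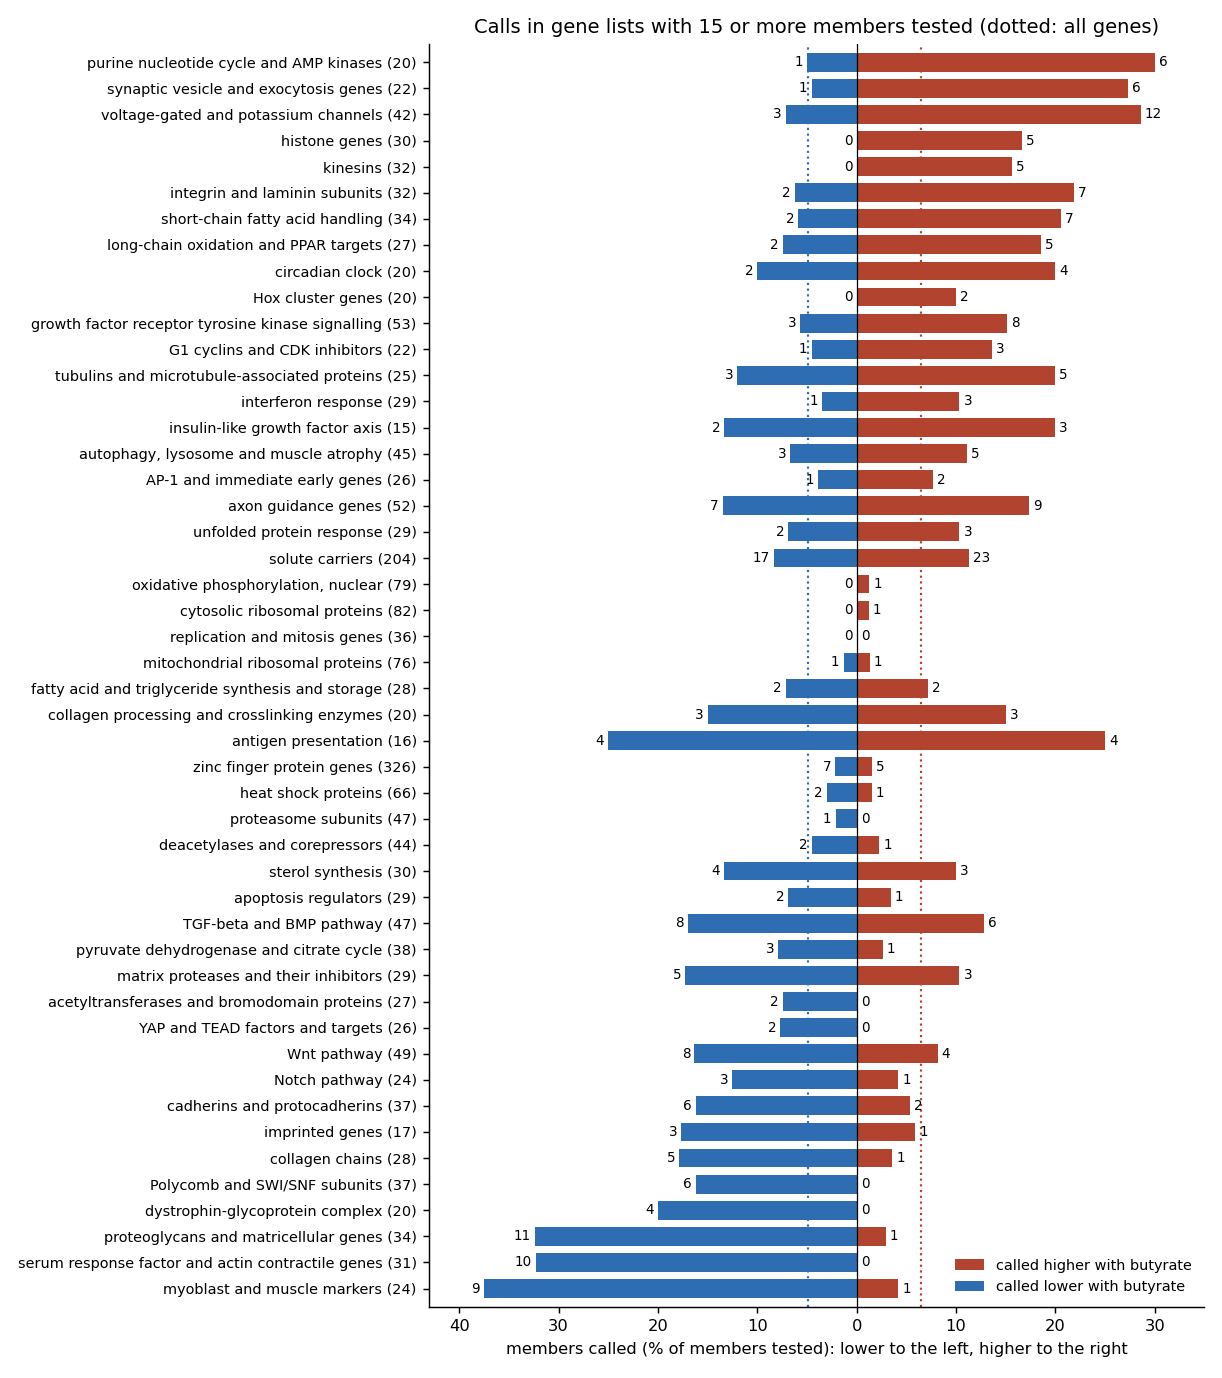
Percent of the tested members called lower (left) and higher (right) in butyrate, for each gene list with 15 or more members tested; dotted lines mark the shares over all 14066 genes tested. Contractile, proteoglycan and muscle genes lie to the left and voltage-gated and potassium channels to the right, whereas ribosomal, respiratory and cell division genes show almost no calls.

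Genes of the extracellular matrix moved in both directions, with most falls among proteoglycans and collagens. Of 34 proteoglycan and matricellular genes tested (40 listed), 11 fell and 1, Spp1, rose, with a median log2 change of -0.26 (2 higher and 17 lower with the replicate block). Of the 8 small leucine-rich proteoglycans tested, which bind collagen fibrils, 4 fell, and their median was -1.32. Besides Ogn these included fibromodulin (Fmod, chromosome 1, 134037254 to 134048277), which had 60.2, 58.3 and 57.5 CPM in butyrate, against 153, 122 and 113 CPM in control (log2 change -1.14, SE 0.12, adjusted p = 0.000320). Its butyrate libraries differed by less than 3 CPM, whereas decorin (Dcn), of the same family, had 6.99, 5.08 and 7.47 CPM in butyrate, against 5.71, 2.85 and 10.7 CPM in control (log2 change 0.03, SE 0.45, adjusted p = 0.976) and overlapped between the groups. Of 28 collagen chains tested (44 listed), 5 fell and 1, Col4a1, rose, with a median of 0.13 (4 higher and 7 lower with the replicate block, and 2 higher and 3 lower without control 3). All 3 main chains of collagen VI, a microfibrillar collagen that surrounds muscle cells, were among the 5. Col6a1 had 595, 496 and 731 CPM in butyrate, against 1033, 958 and 1129.8 CPM in control (log2 change -0.78, SE 0.18, adjusted p = 0.0207), Col6a2 had 257, 214 and 333 CPM in butyrate, against 518, 460.4 and 555 CPM in control (log2 change -0.93, SE 0.19, adjusted p = 0.0108) and Col6a3 had 1962, 1804 and 2295 CPM in butyrate, against 2747, 2648 and 3177 CPM in control (log2 change -0.50, SE 0.12, adjusted p = 0.0216). In each chain the lowest control value exceeded the highest butyrate value. Col4a1 lost its call without butyrate 1, 2 or 3 or control 1 (adjusted p = 0.0573 to 0.169). Col6a1 lost its call without butyrate 1 or 2 or control 1 or 3 (adjusted p = 0.0587 to 0.0960). Col6a2 lost its call without butyrate 2 (adjusted p = 0.0527). Col6a3 lost its call without butyrate 1 or 2 or control 1 (adjusted p = 0.0518 to 0.105).

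Elastic fibre genes split, with 3 of the 14 tested (17 listed) raised and 2 lowered (3 higher and 4 lower with the replicate block or without control 3). Fbln2, a fibulin of basement membranes and elastic fibres, had 477, 507 and 539 CPM in butyrate, against 279, 302 and 281 CPM in control (log2 change 0.82, SE 0.10, adjusted p = 0.000823). Fbln5, a fibulin needed for elastic fibre assembly, had 47.4, 40.9 and 56.9 CPM in butyrate, against 83.7, 66.3 and 92.3 CPM in control (log2 change -0.74, SE 0.16, adjusted p = 0.0153). The list of 20 enzymes that modify and crosslink collagen, in which the amine oxidase Aoc3 described below was also counted, had 3 higher and 3 lower (5 higher and 4 lower with the replicate block). Relatives of lysyl oxidase rose, Loxl2 with 32.2, 41.7 and 39.5 CPM in butyrate, against 17.99, 12.7 and 16.5 CPM in control (log2 change 1.27, SE 0.16, adjusted p = 0.000747) and Loxl4 with 79.3, 93.5 and 70.1 CPM in butyrate, against 42.3, 52.6 and 34.2 CPM in control (log2 change 0.91, SE 0.17, adjusted p = 0.00668). Lox itself had 1106, 965 and 1166 CPM in butyrate, against 1376, 1266 and 1797 CPM in control (log2 change -0.46, SE 0.13, adjusted p = 0.0480). Lox thus lay in the opposite direction to these relatives, with a call close to the threshold. The collagen prolyl 3-hydroxylase P3h1 fell (log2 change -0.68, SE 0.11, adjusted p = 0.00285). The smallest adjusted p of the comparison belonged to Aoc3 (chromosome 11, 101330605 to 101341938), a cell-surface amine oxidase known from fat, smooth muscle and endothelium, which had 3.35, 3.08 and 3.55 CPM in butyrate, against 32.03, 30.8 and 29.1 CPM in control (log2 change -3.20, SE 0.13, adjusted p = 1.41e-06). Fbln5 lost its call without butyrate 1 or 2 or control 1 (adjusted p = 0.0533 to 0.0750). Lox lost its call without butyrate 1, 2 or 3 or control 1 or 3 (adjusted p = 0.0615 to 0.185). Its call was also lost with DESeq2 size factors and with upper-quartile scaling.

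Among 29 matrix proteases, ADAMTS-like proteins and inhibitors tested (50 listed), 3 rose and 5 fell (4 higher and 9 lower with the replicate block). The membrane-type collagenase Mmp14 had 636, 511 and 571 CPM in butyrate, against 1097, 929 and 786 CPM in control (log2 change -0.71, SE 0.13, adjusted p = 0.00705). Its relative Mmp15 had 3.23, 3.202 and 1.81 CPM in butyrate, against 9.38, 8.04 and 4.99 CPM in control (log2 change -1.44, SE 0.28, adjusted p = 0.00893). Another membrane-anchored member, Mmp17, had 1.94, 2.66 and 2.05 CPM in butyrate, against 0.524, 0.503 and 0.324 CPM in control (log2 change 2.27, SE 0.34, adjusted p = 0.00243), and so moved the other way. Adamtsl4, which lacks a protease domain and binds fibrillin microfibrils, had 59.98, 70.6 and 62.5 CPM in butyrate, against 25.6, 39.2 and 24.04 CPM in control (log2 change 1.12, SE 0.19, adjusted p = 0.00411). Laminins, the trimers of basement membranes, had 4 of 10 tested members raised and a median log2 change of 0.30 (4 higher and 1 lower without control 3). Chains of the common laminins rose by little, Lamc1 with 426, 435 and 447 CPM in butyrate, against 349.6, 358 and 361 CPM in control (log2 change 0.29, SE 0.08, adjusted p = 0.0407) and Lamb1 with 364, 372 and 395 CPM in butyrate, against 306, 308 and 313 CPM in control (log2 change 0.29, SE 0.08, adjusted p = 0.0484). Among 22 integrin subunits 3 rose and 2 fell (5 higher and 5 lower with the replicate block, and 5 higher and 6 lower without control 3). Itgb7, a beta subunit known from lymphocytes, had 22.7, 35.95 and 28.2 CPM in butyrate, against 8.27, 14.02 and 8.1003 CPM in control (log2 change 1.51, SE 0.25, adjusted p = 0.00349), and it changed in the opposite direction to Itga11. Lamc1 lost its call without butyrate 1, 2 or 3 or control 1 or 2 (adjusted p = 0.0617 to 0.137). Lamb1 lost its call without butyrate 1, 2 or 3 or control 1 or 2 (adjusted p = 0.0755 to 0.168).

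**Figure D5:**
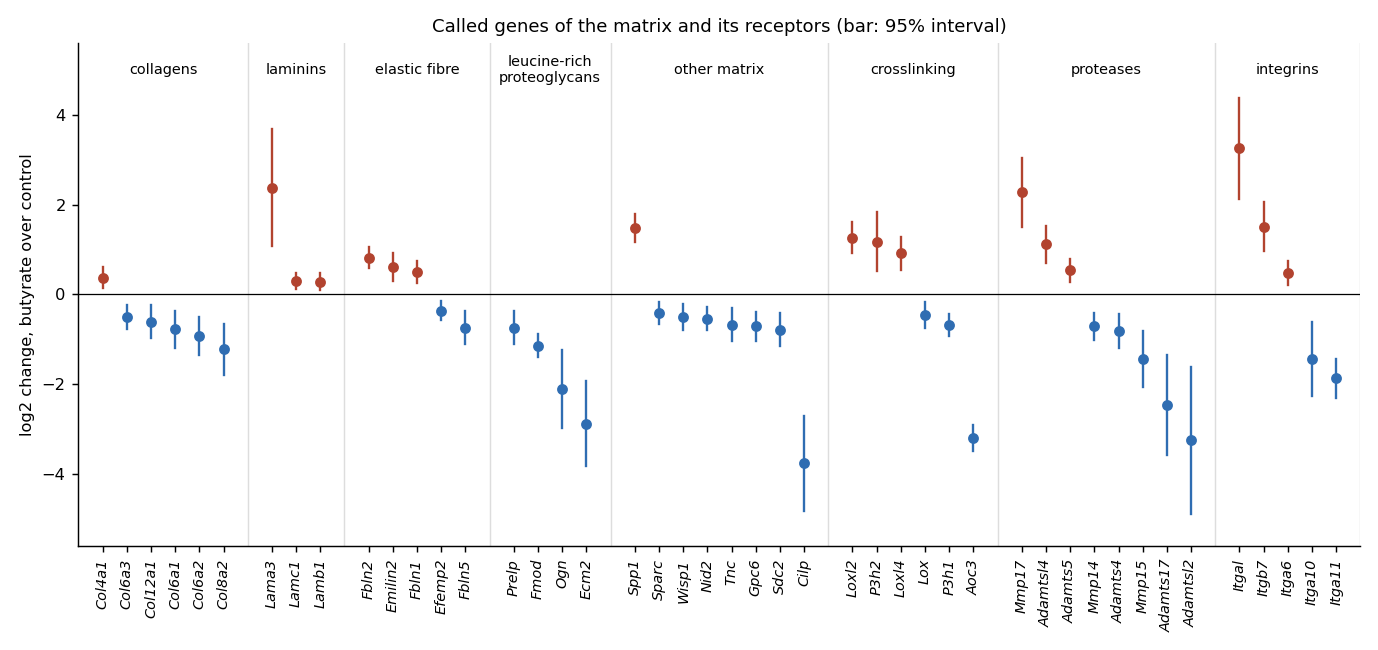
Log2 change (butyrate over control) with its 95% interval for called matrix, protease, integrin and laminin genes, grouped by role. The leucine-rich proteoglycans and most collagen chains lie below 0 and laminins lie above it. The crosslinking group, in which the amine oxidase Aoc3 is also drawn, the proteases and the integrins lie on both sides. Some of the calls drawn were lost once 1 library was left out.

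Genes of the actin cytoskeleton were lowered or did not pass the test. Of 31 factors and contractile or focal adhesion targets of serum response factor tested (32 listed), 10 fell and the other 21 did not pass the test; the median log2 change was -0.38 (0 higher and 19 lower with the replicate block, and 0 higher and 18 lower without control 3). The summed level of the list was 20832 to 24086 CPM in butyrate and 25748 to 31996 CPM in control, without overlap. Calponin (Cnn1), which binds actin in smooth muscle, had 21.4, 28.3 and 25.4 CPM in butyrate, against 54.9, 69.9 and 53.7 CPM in control (log2 change -1.25, SE 0.15, adjusted p = 0.000731). The enteric smooth muscle actin Actg2 had 164, 174 and 131 CPM in butyrate, against 338, 338 and 274 CPM in control (log2 change -1.02, SE 0.14, adjusted p = 0.00120). The filament nucleator Lmod1 had 19.7, 18.4 and 18.6 CPM in butyrate, against 45.6, 46.6 and 28.9 CPM in control (log2 change -1.10, SE 0.17, adjusted p = 0.00256). Each of these 3 was about 2 times lower, as Acta2 was. Broadly expressed members moved less, such as the tropomyosin Tpm4 with 842, 850.3 and 835 CPM in butyrate, against 1121, 1072 and 1204 CPM in control (log2 change -0.43, SE 0.08, adjusted p = 0.00731), the cytoplasmic actin Actg1 with 2701, 2892 and 2387 CPM in butyrate, against 3328, 3664 and 3451 CPM in control (log2 change -0.39, SE 0.10, adjusted p = 0.0340) and the calponin Cnn2 with 420.2, 392 and 380.3 CPM in butyrate, against 631, 652 and 429 CPM in control (log2 change -0.52, SE 0.14, adjusted p = 0.0391). Serum response factor (Srf) itself had 116, 111 and 90.1 CPM in butyrate, against 136, 160.4 and 102 CPM in control (log2 change -0.32, SE 0.17, adjusted p = 0.249), and its groups overlapped. Reads can be shared between actin genes, whose coding sequences are near-identical, so the value of each actin is uncertain. Actg1 lost its call without butyrate 1, 2 or 3 or control 1 or 2 (adjusted p = 0.0596 to 0.169). Cnn2 lost its call without butyrate 1, 2 or 3 or control 1 or 2 (adjusted p = 0.0756 to 0.154).

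Serum response factor binds the CArG box, a short element with an AT-rich core between CC and GG. RefSeq promoter windows of 300 bases (250 before the annotated start and 50 from it onwards, GRCm38.p6) were at hand for 26 of the 31 genes, and 7 of the 26 (26.9%) held a CArG box on either strand, against 1.63% of all 32817 windows in the table. The list was made up of serum response factor, related factors and their targets, so a higher share than over all windows was built in. Whether the box goes with a fall in butyrate was not tested. Of the 9 windows of lowered members, 2 held one. The windows of these 2, and that of skeletal actin (Acta1), a muscle gene with the same element, are shown because all 3 genes were called lower in butyrate (with the losses of call given above for Actg1 and Cnn2); capitals mark the CArG box, which begins 73, 90 and 56 bases before the start in Acta1 (chr8:123894726-123895025, minus strand), Actg1 (chr11:120348446-120348745, minus strand) and Cnn2 (chr10:79988350-79988649, plus strand). A match of letters is a description of the window and not a measured binding site.
Acta1: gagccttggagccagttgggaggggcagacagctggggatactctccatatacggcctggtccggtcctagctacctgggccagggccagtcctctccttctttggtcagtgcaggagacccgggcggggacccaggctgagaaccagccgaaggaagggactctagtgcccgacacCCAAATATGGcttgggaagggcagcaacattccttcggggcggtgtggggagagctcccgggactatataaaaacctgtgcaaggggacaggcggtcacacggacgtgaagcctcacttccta
Actg1: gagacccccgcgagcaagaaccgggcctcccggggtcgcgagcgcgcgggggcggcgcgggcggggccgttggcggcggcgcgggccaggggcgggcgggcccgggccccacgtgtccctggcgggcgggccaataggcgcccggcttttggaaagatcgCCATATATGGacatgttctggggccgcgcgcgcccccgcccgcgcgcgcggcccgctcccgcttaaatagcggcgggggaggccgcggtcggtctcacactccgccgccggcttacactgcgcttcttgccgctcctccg
Cnn2: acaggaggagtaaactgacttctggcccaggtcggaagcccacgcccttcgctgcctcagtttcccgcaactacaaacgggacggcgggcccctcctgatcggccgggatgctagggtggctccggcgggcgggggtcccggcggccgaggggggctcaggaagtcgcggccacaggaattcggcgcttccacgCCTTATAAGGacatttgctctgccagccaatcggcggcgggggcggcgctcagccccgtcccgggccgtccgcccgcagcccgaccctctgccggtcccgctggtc
The remaining 5 genes of the list with a CArG box in the window (Srf, Fhl1, Fhl2, Myl9 and Vcl) were not called.

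Several genes of differentiated muscle were lower as well. Of 11 tested, 7 fell (Acta1, Mymk, Actc1, Tnnt1, Myog, Myh3 and Ttn), with a median log2 change of -2.28. Of 13 myoblast identity genes 2 fell (Myod1 and Chrna1) and 1, Myf5, rose (1 higher and 5 lower with the replicate block or without control 3). Acta1 had 1.88, 2.296 and 1.39 CPM in butyrate, against 11.2, 10.3 and 11.99 CPM in control (log2 change -2.59, SE 0.22, adjusted p = 0.000161). The fusion protein gene Mymk had 0.940, 0.302 and 0.482 CPM in butyrate, against 5.47, 2.57 and 4.34 CPM in control (log2 change -2.82, SE 0.41, adjusted p = 0.00201). Both were low in these dividing cells, so the falls concern few reads per library, with 29 reads of Mymk over the 3 butyrate libraries. No butyrate value reached a control value, as in every called gene. The myogenic factor Myod1 had 54.99, 46.6 and 34.8 CPM in butyrate, against 85.7, 96.7 and 70.6 CPM in control (log2 change -0.89, SE 0.17, adjusted p = 0.00828). The acetylcholine receptor subunit Chrna1 had 174, 122 and 105 CPM in butyrate, against 316, 244 and 228 CPM in control (log2 change -0.97, SE 0.22, adjusted p = 0.0155). Of 20 members of the dystrophin-glycoprotein complex tested, which links the cytoskeleton of muscle fibres to the matrix, 4 fell and the other 16 did not pass the test (0 higher and 8 lower with the replicate block). The transmembrane member sarcospan (Sspn) had 45.2, 38.9 and 40.7 CPM in butyrate, against 78.8, 69.8 and 101 CPM in control (log2 change -1.0, SE 0.13, adjusted p = 0.00118). The small heat shock protein Hspb6, abundant in muscle, had 24.1, 23.3 and 27.9 CPM in butyrate, against 49.9, 60.3 and 63.7 CPM in control (log2 change -1.21, SE 0.13, adjusted p = 0.000378). Actc1 lost its call without butyrate 2 or 3 (adjusted p = 0.0624 to 0.0634). Tnnt1 lost its call without butyrate 1, 2 or 3 or control 1 or 2 (adjusted p = 0.0511 to 0.120). Myog lost its call without butyrate 2 or 3 or control 1 or 3 (adjusted p = 0.0745 to 0.131). Myh3 lost its call without butyrate 1, 2 or 3 or control 1 (adjusted p = 0.0614 to 0.140). Ttn lost its call without butyrate 2 or 3 or control 1 or 3 (adjusted p = 0.0855 to 0.157). Chrna1 lost its call without butyrate 2 or 3 or control 1 (adjusted p = 0.0644 to 0.0778). Myf5 lost its call without butyrate 1, 2 or 3 or control 1 or 2 (adjusted p = 0.0552 to 0.0940).

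Markers of fibroblasts and smooth muscle were mostly lower, though not all of them. Of the 12 markers listed, 8 were tested. Of these, 3 fell (Acta2, Cnn1 and Lmod1, which the contractile list also holds), 1, Ly6a, rose and 4 were not called (1 higher and 5 lower with the replicate block or without control 3). The median log2 change of the 8 was -1.13. Their summed level was 2643 to 3064 CPM in butyrate and 4278 to 5142 CPM in control, with Tcf21 at 0 in all 6 libraries. Acta2 alone, at 1487 to 1770.5 CPM in butyrate and 3365 to 3904 CPM in control, made up most of this sum and of its fall. The part of these markers in the results above was not tested. Ly6a lost its call without butyrate 1 or 3 or control 1 or 2 (adjusted p = 0.0723 to 0.120).

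Growth factor signalling showed more ligand genes raised than lowered. Of 23 ligands of receptor tyrosine kinases tested, 6 rose and 1 fell (10 higher and 4 lower with the replicate block). Of 15 receptors 2 rose and 2 fell (4 higher and 2 lower with the replicate block). Areg (amphiregulin), a ligand of the epidermal growth factor receptor, had 16.9, 28.6 and 14.8 CPM in butyrate, against 3.73, 4.92 and 2.203 CPM in control (log2 change 2.46, SE 0.38, adjusted p = 0.00247). Gas6, the ligand of the Tyro3, Axl and Mertk receptors, had 33.96, 30.996 and 41.6 CPM in butyrate, against 13.04, 14.4 and 16.98 CPM in control (log2 change 1.26, SE 0.19, adjusted p = 0.00219). The receptor Erbb3 had 2.06, 4.89 and 2.29 CPM in butyrate, against 0.582, 0.279 and 0.324 CPM in control (log2 change 2.94, SE 0.46, adjusted p = 0.00269), highest in butyrate 2. On the platelet-derived growth factor side the receptor Pdgfrb had 479, 412 and 449 CPM in butyrate, against 771, 687 and 674 CPM in control (log2 change -0.67, SE 0.09, adjusted p = 0.00131) and the ligand Pdgfc had 61.3, 47.7 and 47.1 CPM in butyrate, against 94.97, 76.4 and 90.7 CPM in control (log2 change -0.75, SE 0.14, adjusted p = 0.00815). Both of these were lower in every butyrate library than in any control library.

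In the Wnt pathway 4 of 49 genes tested (70 listed) rose and 8 fell (9 higher and 14 lower with the replicate block). Dkk2 (chromosome 3, 132085292 to 132180304), a secreted protein that binds the Lrp co-receptors of Wnt and mostly antagonises it, had 7.52, 6.46 and 10.3 CPM in butyrate, against 0.757, 0.782 and 1.36 CPM in control (log2 change 3.07, SE 0.28, adjusted p = 0.000222). It was scarce in control cells and rose in each butyrate library. The ligand Wnt10a had 112, 110.0 and 101 CPM in butyrate, against 173, 181 and 148 CPM in control (log2 change -0.64, SE 0.11, adjusted p = 0.00457) and the R-spondin receptor Lgr4 had 65.5, 58.4 and 71.6 CPM in butyrate, against 87.98, 96.8 and 119.8 CPM in control (log2 change -0.64, SE 0.12, adjusted p = 0.00778). Lef1, a transcription factor that acts with beta-catenin, had 8.28, 9.003 and 8.43 CPM in butyrate, against 21.4, 15.6 and 15.4 CPM in control (log2 change -1.03, SE 0.18, adjusted p = 0.00470). These 3 fell, but the ligands as a group were split, with Wnt6 and Wnt5b higher and Wnt10a and Wnt10b lower of 10 tested, and a median log2 change of 0.33 (4 higher and 2 lower with the replicate block, and 1 higher and 2 lower without control 3). Of 17 receptors 4 fell (2 higher and 7 lower with the replicate block, and 2 higher and 4 lower without control 3), of 8 secreted antagonists and modifiers 2 rose (3 higher and 1 lower with the replicate block, and 1 higher and 0 lower without control 3), and of 14 transducers and targets 2 fell (0 higher and 4 lower with the replicate block, and 0 higher and 5 lower without control 3). In the Notch pathway 3 of 24 genes fell and 1 rose (2 higher and 7 lower with the replicate block, and 2 higher and 5 lower without control 3). The ligand Jag1 had 11.1, 15.1 and 16.6 CPM in butyrate, against 27.2, 23.9 and 35.3 CPM in control (log2 change -1.01, SE 0.18, adjusted p = 0.00548). Lfng, a glycosyltransferase that modifies Notch receptors, had 30.3, 30.2 and 25.4 CPM in butyrate, against 52.5, 59.3 and 50.9 CPM in control (log2 change -0.92, SE 0.11, adjusted p = 0.000565). The 4 receptors were not called. Wnt6 lost its call without butyrate 1, 2 or 3 or control 2 (adjusted p = 0.0513 to 0.101). Wnt5b lost its call without butyrate 2 or 3 or control 1 or 3 (adjusted p = 0.0639 to 0.189). Wnt10b lost its call without butyrate 3 (adjusted p = 0.0572).

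Of 47 genes of transforming growth factor beta (TGF-beta) and bone morphogenetic protein (BMP) signalling tested, 6 rose and 8 fell (9 higher and 13 lower with the replicate block). Among ligands Gdf15, a stress-induced cytokine, had 20.9, 32.02 and 21.02 CPM in butyrate, against 9.49, 12.5 and 6.87 CPM in control (log2 change 1.35, SE 0.23, adjusted p = 0.00470). Tgfb3 had 113, 108 and 95.3 CPM in butyrate, against 214, 229.5 and 156 CPM in control (log2 change -0.92, SE 0.14, adjusted p = 0.00201). Among type I receptors Acvr1b, which serves activin and myostatin, had 16.4, 20.3 and 17.5 CPM in butyrate, against 9.67, 10.6 and 10.1 CPM in control (log2 change 0.83, SE 0.12, adjusted p = 0.00217). Acvrl1, known from endothelium, had 2.76, 2.36 and 3.37 CPM in butyrate, against 0.699, 0.447 and 1.04 CPM in control (log2 change 1.97, SE 0.31, adjusted p = 0.00315). The secreted BMP antagonist Grem1 had 242, 312 and 295 CPM in butyrate, against 127, 158 and 159 CPM in control (log2 change 0.93, SE 0.14, adjusted p = 0.00265). Id2, a target of BMP signalling that inhibits helix-loop-helix factors, had 27.6, 26.7 and 25.9 CPM in butyrate, against 35.5, 39.997 and 43.6 CPM in control (log2 change -0.57, SE 0.10, adjusted p = 0.00627). The receptors and secreted inhibitors were split. Of 12 receptors Acvr1b and Acvrl1 rose and Acvr1 and Acvr2a fell (2 higher and 1 lower without control 3). Of 8 secreted inhibitors Grem1 and Chrd rose and Fstl1 and Chrdl1 fell. Acvr1 lost its call without butyrate 2 or 3 or control 1 (adjusted p = 0.0579 to 0.0679). Acvr2a lost its call without butyrate 1, 2 or 3 or control 1 or 3 (adjusted p = 0.0605 to 0.143). Fstl1 lost its call without butyrate 2 (adjusted p = 0.0557). Chrdl1 lost its call without butyrate 2 or 3 or control 1 or 3 (adjusted p = 0.0605 to 0.148).

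In the insulin-like growth factor list 3 of 15 genes rose and 2 fell (7 higher and 4 lower with the replicate block). Igfbp5, a secreted binding protein made by differentiating myoblasts, had 432, 247 and 231 CPM in butyrate, against 943, 699 and 655 CPM in control (log2 change -1.34, SE 0.25, adjusted p = 0.00685). Igf2bp1 had 2.64, 4.59 and 2.71 CPM in butyrate, against 0.291, 0.391 and 0.324 CPM in control (log2 change 3.27, SE 0.39, adjusted p = 0.000592) and Igf2bp2 had 30.8, 30.6 and 43.7 CPM in butyrate, against 8.73, 6.42 and 16.8 CPM in control (log2 change 1.73, SE 0.35, adjusted p = 0.0106). Both are RNA-binding proteins named for the Igf2 mRNA they bind and do not bind the growth factor itself. Control 3 held the highest control value of Igf2bp2, and it still lay under all butyrate values.

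Some genes best known from neurons, at low levels in control cells, were raised. Of 42 voltage-gated and potassium channel genes tested (136 listed), 12 rose and 3 fell (17 higher and 5 lower with the replicate block). The T-type calcium channel Cacna1g had 2.94, 4.89 and 3.86 CPM in butyrate, against 0.349, 0.391 and 0.194 CPM in control (log2 change 3.60, SE 0.34, adjusted p = 0.000223). The pacemaker channel Hcn2 had 1.59, 1.45 and 0.783 CPM in butyrate, against 0.116, 0.0559 and 0.130 CPM in control (log2 change 3.59, SE 0.54, adjusted p = 0.00233). Both genes rose without overlap, but at low levels. Because only 42 of 136 channels passed the filter on low counts, these are not all members of the family, and those that passed through butyrate alone had to be higher there. Of 22 synaptic vesicle and exocytosis genes tested (43 listed), 6 rose and 1 fell, with a median log2 change of 0.42. The same limit holds for members of this list that passed through butyrate alone. Calls also went with level. Of all genes tested between 1 and 10 CPM, 11.9% were higher and 2.74% lower. Synapsin (Syn1) had 42.01, 48.6 and 38.4 CPM in butyrate, against 22.8, 22.8 and 18.1 CPM in control (log2 change 1.01, SE 0.17, adjusted p = 0.00353). The vesicle protein Sv2a had 4.52, 4.89 and 4.52 CPM in butyrate, against 1.69, 1.51 and 1.102 CPM in control (log2 change 1.69, SE 0.25, adjusted p = 0.00201). Complexin Cplx2 had 21.3, 22.8 and 18.6 CPM in butyrate, against 50.9, 40.8 and 32.7 CPM in control (log2 change -0.99, SE 0.17, adjusted p = 0.00446).

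Some motor and guidance cue genes were raised too. Of 32 kinesins tested, 5 rose and the other 27 did not pass the test (5 higher and 1 lower with the replicate block); besides Kif1a they included Kif5c, a conventional kinesin heavy chain of neurons, with 47.3, 45.6 and 44.4 CPM in butyrate, against 23.2, 26.03 and 25.2 CPM in control (log2 change 0.88, SE 0.09, adjusted p = 0.000317), and Kif21a with 66.6, 68.3 and 68.1 CPM in butyrate, against 43.2, 46.9 and 50.1 CPM in control (log2 change 0.53, SE 0.09, adjusted p = 0.00436). The replicates of both kinesins differed little within groups. Of 31 semaphorins, ephrins, netrins and other guidance ligands tested, 8 rose and 2 fell (10 higher and 4 lower with the replicate block, and 8 higher and 1 lower without control 3). Of their 21 receptors 1 rose and 5 fell (3 higher and 6 lower with the replicate block, and 2 higher and 6 lower without control 3). Sema4g had 4.76, 4.65 and 6.81 CPM in butyrate, against 0.466, 0.391 and 1.04 CPM in control (log2 change 3.11, SE 0.35, adjusted p = 0.000493). The ephrin Efna3 had 3.76, 5.68 and 4.82 CPM in butyrate, against 0.699, 0.559 and 0.194 CPM in control (log2 change 3.25, SE 0.37, adjusted p = 0.000530). Against these, the receptor Nrp2, which binds class 3 semaphorins, had 396, 303 and 397 CPM in butyrate, against 571, 507 and 547 CPM in control (log2 change -0.57, SE 0.11, adjusted p = 0.00922), and so fell like Plxna2 above. Of 16 neuronal markers listed, 7 were tested and 4 rose. As with the channels, guidance genes and markers that passed the filter through butyrate alone had to be higher there. Prph (peripherin), an intermediate filament of peripheral neurons, had 11.2, 12.6 and 10.4 CPM in butyrate, against 1.22, 0.838 and 0.518 CPM in control (log2 change 3.71, SE 0.25, adjusted p = 4.85e-05). The microtubule regulator Stmn2 had 32.2, 30.3 and 28.9 CPM in butyrate, against 13.9, 13.3 and 13.8 CPM in control (log2 change 1.15, SE 0.10, adjusted p = 0.000161). The summed level of the markers was 200.6 to 211.8 CPM in butyrate and 166.9 to 180.2 CPM in control, and the defining markers Dcx, Elavl4, Rbfox3 and Snap25 were at 0 in all 6 libraries.

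Few genes of the deacetylases themselves were called. Of the 11 zinc-dependent deacetylases tested, Hdac1 rose, with 98.2, 114 and 98.1 CPM in butyrate, against 70.8, 80.05 and 79.1 CPM in control (log2 change 0.43, SE 0.10, adjusted p = 0.0150), and the other 10 did not pass the test (2 higher and 0 lower with the replicate block). Hdac2, its partner in many complexes, had 137, 149 and 137 CPM in butyrate, against 146, 154 and 186 CPM in control (log2 change -0.20, SE 0.10, adjusted p = 0.242). Hdac3 had 97.2, 108 and 106 CPM in butyrate, against 89.03, 94.2 and 101 CPM in control (log2 change 0.13, SE 0.09, adjusted p = 0.373), with overlap in both. Of the 7 sirtuins, which depend on NAD, Sirt1 (chromosome 10, 63319005 to 63381704) fell, with 17.7, 15.6 and 17.8 CPM in butyrate, against 30.2, 27.9 and 41.9 CPM in control (log2 change -0.97, SE 0.15, adjusted p = 0.00288). Each butyrate library lay well under each control library for Sirt1. Among 21 Polycomb subunits 2 fell (0 higher and 4 lower with the replicate block, and 1 higher and 2 lower without control 3), both of the complex that ubiquitinates histone H2A, Bmi1 with 63.7, 54.9 and 65.3 CPM in butyrate, against 103, 96.2 and 155 CPM in control (log2 change -0.94, SE 0.16, adjusted p = 0.00463) and Phc1 with 40.8, 41.3 and 37.7 CPM in butyrate, against 58.1, 53.6 and 57.998 CPM in control (log2 change -0.50, SE 0.09, adjusted p = 0.00652). Of 16 SWI/SNF subunits 4 fell; Smarcc2 had 150.5, 149 and 150.0 CPM in butyrate, against 190.0, 188 and 173 CPM in control (log2 change -0.30, SE 0.08, adjusted p = 0.0322). Of 27 acetyltransferases and acetyl-lysine readers 2 fell (0 higher and 7 lower with the replicate block, and 0 higher and 5 lower without control 3). The linker histone H1fx had 46.2, 48.9 and 51.4 CPM in butyrate, against 31.7, 32.7 and 26.1 CPM in control (log2 change 0.70, SE 0.11, adjusted p = 0.00256); of 30 histone genes tested (78 listed), 5 rose (8 higher and 0 lower with the replicate block, and 7 higher and 1 lower without control 3), and reads of near-identical clustered histone genes cannot be told apart. Hdac1 lost its call without butyrate 2 or control 1 (adjusted p = 0.0590 to 0.0697). Smarcc2 lost its call without butyrate 1, 2 or 3 or control 1 or 2 (adjusted p = 0.0762 to 0.133).

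Transcription factors moved in both directions. Of 931 tested, 37 rose and 59 fell (64 higher and 132 lower with the replicate block, and 50 higher and 100 lower without control 3), which is 3.97% and 6.34%, against 6.61% and 4.85% of the 13135 other genes; the difference was not tested. The families named next were chosen after their values were seen. Of 6 T-box factors 3 fell. Tbx3 had 12.7, 12.4 and 13.9 CPM in butyrate, against 21.8, 20.3 and 22.03 CPM in control (log2 change -0.72, SE 0.10, adjusted p = 0.00199), without overlap. Of 22 forkhead factors 5 fell and 1 rose (2 higher and 7 lower with the replicate block, and 1 higher and 9 lower without control 3). Foxc1 had 54.3, 44.3 and 55.4 CPM in butyrate, against 81.1, 82.5 and 73.3 CPM in control (log2 change -0.62, SE 0.10, adjusted p = 0.00374) and Foxq1 had 5.52, 4.65 and 4.52 CPM in butyrate, against 15.1, 14.1 and 8.55 CPM in control (log2 change -1.36, SE 0.23, adjusted p = 0.00417). Foxl1 had 12.3, 15.4 and 14.8 CPM in butyrate, against 8.04, 8.66 and 6.93 CPM in control (log2 change 0.84, SE 0.15, adjusted p = 0.00464). Of 15 ETS factors 3 rose (4 higher and 3 lower with the replicate block, and 4 higher and 1 lower without control 3), among them Etv4, a target of growth factor signalling, with 45.6, 54.3 and 50.5 CPM in butyrate, against 31.9, 31.9 and 26.7 CPM in control (log2 change 0.73, SE 0.12, adjusted p = 0.00307).

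Genes of monocarboxylate transport were raised. Of 4 transporters and receptors of short-chain fatty acids that passed the filter (12 listed), 3 rose. Slc16a3 (chromosome 11, 120948480 to 120960868), which encodes the transporter MCT4 and mostly exports lactate, had 36.6, 35.2 and 51.02 CPM in butyrate, against 17.6, 16.8 and 13.5 CPM in control (log2 change 1.35, SE 0.16, adjusted p = 0.000694). Slc16a1, which encodes MCT1, a carrier of butyrate and lactate, had 209, 243 and 186 CPM in butyrate, against 140.0, 145 and 146 CPM in control (log2 change 0.57, SE 0.11, adjusted p = 0.00798). Basigin (Bsg), the chaperone that both carriers need to reach the membrane, had 638, 674 and 743 CPM in butyrate, against 438, 447 and 417 CPM in control (log2 change 0.66, SE 0.09, adjusted p = 0.00121). All 3 were higher in each butyrate library than in any control library. Of 10 genes of short acyl chain oxidation 1 fell (1 higher and 1 lower with the replicate block or without control 3), the hydratase Echs1 with 88.5, 85.01 and 88.3 CPM in butyrate, against 132, 119 and 128 CPM in control (log2 change -0.53, SE 0.09, adjusted p = 0.00387). Acads, the dehydrogenase that acts on butyryl-CoA, had 68.8, 74.3 and 66.02 CPM in butyrate, against 71.8, 66.4 and 76.2 CPM in control (log2 change -0.04, SE 0.09, adjusted p = 0.831), with overlap. Cpt1a, which admits long chains to mitochondria, had 173, 179 and 171 CPM in butyrate, against 131, 122 and 128 CPM in control (log2 change 0.45, SE 0.08, adjusted p = 0.00450). Pdk4, the kinase that restrains pyruvate dehydrogenase, fell (log2 change -0.86, SE 0.09, adjusted p = 0.000350), and so did the mitochondrial carrier Ucp2, with 88.7, 98.9 and 76.4 CPM in butyrate, against 154, 158 and 140.5 CPM in control (log2 change -0.78, SE 0.10, adjusted p = 0.00118).

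Genes of the purine nucleotide cycle and AMP metabolism included 6 raised and 1 lowered of 20 tested. Ampd3 (chromosome 7, 110768206 to 110812405), which deaminates AMP to IMP, had 91.1, 107 and 95.7 CPM in butyrate, against 41.6, 44.2 and 41.1 CPM in control (log2 change 1.21, SE 0.09, adjusted p = 0.000111). Adssl1 (chromosome 12, 112620045 to 112641360), the muscle adenylosuccinate synthase that acts on IMP in the same cycle, had 60.1, 59.1 and 67.8 CPM in butyrate, against 23.5, 26.1 and 23.1 CPM in control (log2 change 1.36, SE 0.11, adjusted p = 0.000111). Nt5e, the cell-surface enzyme that makes adenosine from AMP, had 12.98, 13.9 and 13.3 CPM in butyrate, against 6.17, 5.47 and 6.54 CPM in control (log2 change 1.14, SE 0.18, adjusted p = 0.00268). The 3 genes showed little spread within either group. The nucleoside carrier Slc29a1, which takes up adenosine, fell, with 211, 223 and 198 CPM in butyrate, against 366, 335 and 322 CPM in control (log2 change -0.70, SE 0.09, adjusted p = 0.000872). Of 19 sterol synthesis enzymes 4 fell (1 higher and 6 lower with the replicate block, and 1 higher and 4 lower without control 3); Tm7sf2, a sterol reductase, had 14.04, 13.1 and 13.01 CPM in butyrate, against 21.4, 20.6 and 19.8 CPM in control (log2 change -0.62, SE 0.11, adjusted p = 0.00570). Ebp, a sterol isomerase, had 51.99, 61.2 and 51.8 CPM in butyrate, against 88.5, 93.01 and 68.3 CPM in control (log2 change -0.60, SE 0.13, adjusted p = 0.0150). Among genes of triglyceride synthesis and storage Dgat2, which makes triglyceride, had 4.35, 6.16 and 6.39 CPM in butyrate, against 2.62, 1.62 and 1.88 CPM in control (log2 change 1.46, SE 0.28, adjusted p = 0.00738). Plin4, a lipid droplet coat protein, had 13.2, 10.03 and 10.5 CPM in butyrate, against 35.8, 34.8 and 18.3 CPM in control (log2 change -1.40, SE 0.24, adjusted p = 0.00447). Ebp lost its call without butyrate 1 or 3 or control 1 (adjusted p = 0.0597 to 0.0810).

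Large housekeeping groups had few calls. Of 79 nuclear genes of oxidative phosphorylation tested 1 rose (2 higher and 3 lower with the replicate block, and 2 higher and 1 lower without control 3), and of 82 cytosolic ribosomal proteins 1 rose (7 higher and 0 lower with the replicate block). Of 76 mitochondrial ribosomal proteins 1 rose and 1 fell (3 higher and 1 lower with the replicate block, and 1 higher and 3 lower without control 3), and of 47 proteasome subunits 1 fell (1 higher and 2 lower with the replicate block, and 0 higher and 3 lower without control 3). Of 36 genes of DNA replication and mitosis, edgeR called 0, with log2 changes of -0.25 to 0.52; 5 had an unadjusted p under 0.05, the DESeq2 Wald test called 1, 7 rose with the replicate block, and 4 rose without control 3. The proliferation marker Mki67 had 558, 552 and 629.6 CPM in butyrate, against 426, 495 and 626 CPM in control (log2 change 0.17, SE 0.13, adjusted p = 0.452). Its groups overlapped, and control 3 was as high as the butyrate libraries. Without control 3, Mki67 was called higher (log2 change 0.34, adjusted p = 0.0219). Cyclin D1 (Ccnd1), which drives entry into the cell cycle, did rise, with 369, 527 and 410.1 CPM in butyrate, against 170.2, 246 and 222 CPM in control (log2 change 1.04, SE 0.18, adjusted p = 0.00427). The inhibitor Cdkn1a rose as well, with 247, 314 and 207 CPM in butyrate, against 174, 169 and 108 CPM in control (log2 change 0.77, SE 0.19, adjusted p = 0.0277). Cdkn1a lost its call without butyrate 1 or 2 (adjusted p = 0.0583 to 0.125).

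Antigen presentation genes moved in both directions, 4 higher and 4 lower of 16 tested (7 higher and 5 lower with the replicate block). The class I heavy chain H2-K1 had 64.7, 67.1 and 77.3 CPM in butyrate, against 19.3, 18.2 and 26.96 CPM in control (log2 change 1.70, SE 0.18, adjusted p = 0.000372). H2-Q4, a non-classical heavy chain, had 23.3, 21.6 and 24.3 CPM in butyrate, against 8.91, 9.22 and 8.29 CPM in control (log2 change 1.39, SE 0.17, adjusted p = 0.000782). The peptide transporter Tap1 and the heavy chain H2-M3 rose too. Among the falls were the trimming protease Erap1 with 14.6, 14.02 and 13.6 CPM in butyrate, against 28.2, 26.1 and 44.97 CPM in control (log2 change -1.23, SE 0.19, adjusted p = 0.00251) and the editor Tapbpl with 4.29, 3.87 and 3.79 CPM in butyrate, against 8.85, 10.3 and 7.91 CPM in control (log2 change -1.18, SE 0.17, adjusted p = 0.00182). The heavy chain H2-T23 and the proteasome subunit Psmb10 fell as well, so neither heavy chains nor peptide-handling genes moved in 1 direction. H2 genes resemble each other closely, and their reads may be shared. Of 29 interferon response genes tested (44 listed), 3 rose and 1 fell (5 higher and 1 lower with the replicate block or without control 3). Bst2 (tetherin) had 12.1, 14.1 and 14.9 CPM in butyrate, against 4.13, 3.63 and 3.18 CPM in control (log2 change 1.91, SE 0.16, adjusted p = 0.000140). The immunity GTPase Irgm1 had 30.1, 27.1 and 26.8 CPM in butyrate, against 57.4, 50.5 and 60.8 CPM in control (log2 change -1.01, SE 0.10, adjusted p = 0.000296). Both separated fully, in opposite directions. Markers of blood cells summed to 18.7 to 21.3 CPM in butyrate and 15.6 to 17.9 CPM in control, with 4 of 13 tested, 1 raised (Hba-a1) (2 higher and 0 lower with the replicate block) and the defining marker Adgre1 at 0; their part was not tested. Tap1 lost its call without butyrate 2 or 3 or control 1 (adjusted p = 0.0506 to 0.0703). H2-M3 lost its call without butyrate 1, 2 or 3 or control 2 or 3 (adjusted p = 0.0681 to 0.145). H2-T23 lost its call without butyrate 2 or 3 (adjusted p = 0.0555 to 0.0596). Psmb10 lost its call without butyrate 1, 2 or 3 or control 1 or 2 (adjusted p = 0.0715 to 0.140).

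Clock genes moved in both directions. Of 20 clock genes 4 rose and 2 fell. Dbp, a clock-driven transcription factor, had 26.4, 25.5 and 30.1 CPM in butyrate, against 13.7, 13.6 and 9.91 CPM in control (log2 change 1.14, SE 0.15, adjusted p = 0.00106). Nr1d1, a repressor of the loop, had 64.6, 77.6 and 78.1 CPM in butyrate, against 40.7, 42.7 and 40.2 CPM in control (log2 change 0.83, SE 0.11, adjusted p = 0.00111). Cry1, which Nr1d1 is known to repress, had 13.5, 15.2 and 14.52 CPM in butyrate, against 20.3, 22.8 and 18.3 CPM in control (log2 change -0.51, SE 0.13, adjusted p = 0.0278). Of 18 lysosomal genes tested 5 rose and 1 fell (6 higher and 4 lower with the replicate block, and 5 higher and 2 lower without control 3). The cysteine protease cathepsin L (Ctsl) was the gene of smallest p among the 5 raised, with 292, 334 and 341 CPM in butyrate, against 213, 199 and 202 CPM in control (log2 change 0.65, SE 0.09, adjusted p = 0.00134). The heme transporter Slc48a1, also of the lysosome, had 418, 500.2 and 434 CPM in butyrate, against 249.6, 298 and 213 CPM in control (log2 change 0.83, SE 0.14, adjusted p = 0.00350), in a list of 204 solute carriers in which 23 rose and 17 fell (30 higher and 29 lower with the replicate block). Of 17 imprinted genes tested 3 fell and 1 rose (1 higher and 5 lower with the replicate block); Mest, expressed from the paternal allele, had 16.6, 14.8 and 8.73 CPM in butyrate, against 28.1, 27.6 and 38.2 CPM in control (log2 change -1.22, SE 0.22, adjusted p = 0.00612). The long non-coding H19 had 414, 239 and 282 CPM in butyrate, against 542, 637 and 491 CPM in control (log2 change -0.84, SE 0.18, adjusted p = 0.0133). Cry1 lost its call without butyrate 1, 2 or 3 or control 1 or 2 (adjusted p = 0.0759 to 0.0992). H19 lost its call without butyrate 2 or 3 (adjusted p = 0.0562 to 0.0689).

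Of 808 long non-coding RNA genes tested, 33 rose and 11 fell (54 higher and 27 lower with the replicate block). Miat, a long non-coding RNA known from neurons and the heart, had 5.17, 6.89 and 7.65 CPM in butyrate, against 0.175, 0.503 and 0.130 CPM in control (log2 change 4.54, SE 0.39, adjusted p = 0.000161). It was at several CPM in every butyrate library and under 1 CPM in every control library. Gm35019 had 2.996, 1.93 and 1.93 CPM in butyrate, against 6.81, 5.59 and 5.897 CPM in control (log2 change -1.41, SE 0.24, adjusted p = 0.00417). E130307A14Rik, annotated as antisense, had 1.998, 1.21 and 2.35 CPM in butyrate, against 5.18, 4.97 and 5.703 CPM in control (log2 change -1.51, SE 0.24, adjusted p = 0.00314). No source used here says whether reads were counted by strand, and without strand an antisense gene and its partner cannot be told apart.

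Called genes also lay next to each other on chromosomes. The next tested gene was raised as well for 105 of the 905 raised genes (11.6%) and lowered as well for 56 of 695 lowered genes (8.06%), beside the 6.43% and 4.95% over all genes. The difference was not tested. The longest run of neighbouring tested genes called in one direction held 7 raised genes on chromosome 15, from 74721204 to 75272235. It covered Them6, Lynx1, Ly6e, Ly6a, Ly6c1, BC025446 and Ly6f, most of which encode small membrane-anchored proteins of the Ly6 family. The run was found by its values, and no test is given for it. Ly6c1 had 38.1, 33.2 and 53.8 CPM in butyrate, against 17.6, 21.6 and 23.4 CPM in control (log2 change 1.0, SE 0.21, adjusted p = 0.0113). Ly6f had 4.29, 2.11 and 4.699 CPM in butyrate, against 0.641, 0.559 and 0.972 CPM in control (log2 change 2.36, SE 0.39, adjusted p = 0.00389). The Ly6 genes arose by duplication, so reads may be shared between them. A run of 4 raised genes on chromosome 10, from 75774115 to 75860240, held the glutathione transferases Gstt3, Gstt1 and Gstt2 and the cytokine Mif. Gstt1, which conjugates glutathione to small toxic molecules, had 7.75, 8.096 and 10.6 CPM in butyrate, against 0.699, 1.79 and 1.94 CPM in control (log2 change 2.58, SE 0.38, adjusted p = 0.00210). Mif had 309.7, 349.7 and 353 CPM in butyrate, against 213, 248 and 236 CPM in control (log2 change 0.54, SE 0.10, adjusted p = 0.00709). Another run of 4 raised genes lay on chromosome 15, from 100761747 to 101213684. Runs of 4 lowered genes lay on chromosome 18, from 37496991 to 37524479, and on chromosome 2, from 28513125 to 28840360. Some calls in these runs were lost once 1 library was left out. Them6 lost its call without butyrate 1, 2 or 3 or control 1 or 3 (adjusted p = 0.0573 to 0.164). Ly6a lost its call without butyrate 1 or 3 or control 1 or 2 (adjusted p = 0.0723 to 0.120). Gstt2 lost its call without butyrate 1, 2 or 3 or control 1, 2 or 3 (adjusted p = 0.0587 to 0.154).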

How the data were processed

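RNA was extracted with Trizol and turned into SMARTER mRNA-seq libraries, according to the protocols in the labels. The authors deposited 1 table of raw read counts per gene for 9 libraries, with gene lengths and annotations; GRCm38 (mm10) is named in the submitters' processing notes, and no source used here names the aligner, the counter or the strand setting. From these counts, edgeR 4.0.16 (R 4.3.3, limma 3.58.1) was run on all 9 libraries with 1 factor for the 3 groups, TMM scaling, filterByExpr and the robust quasi-likelihood test (6 residual degrees of freedom, biological coefficient of variation 14.4%). P-values were adjusted by Benjamini-Hochberg over 14066 genes and called under 0.05. The SE is approximate: the log2 change over the root of its F statistic. CPM use the scaled library sizes, and RPKM divide CPM by the deposited gene length. The 165 lines without an Ensembl identifier held 0.0935% to 0.107% of the counts; 110 of them were tested. Tables and figures were made with Python 3.11.15, pandas 2.3.3 and matplotlib 3.10.9.

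The libraries differ in depth by little, from 15829262 to 18102783 counts in the 6 compared, so 1 CPM stands for about as many reads in each; genes under that level are measured with few reads. Deviations from the group mean correlated at 0.202 to 0.392 between butyrate and control libraries of the same number (3 pairs) and at -0.316 to 0.0133 between those of other numbers (6 pairs). Every same-numbered pair was above 0.1, but the labels state no pairing. The calls, p-values and SE reported therefore come from the fit without the block. The blocked counts are given beside the counts of genes in a group that they change by over 1.5 times. With the block 2916 genes were called against 1601 without it, so a gene that did not pass the reported test may pass with the block.

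The 56 gene lists (2881 genes) and the comparison itself were chosen with earlier results of these data known. Genes were named by a rule: the 12 largest rises and falls among called protein-coding genes of at least 20 CPM, the 8 largest gains and losses in mean CPM, in each list up to 4 called members of smallest p in each direction, the 5 largest rises and falls among called long non-coding RNAs of at least 1 CPM, and a fixed set (deacetylases, Slc16a1, Acads, Ppargc1a, Pdk4, Mki67, Ccnd1, Cdkn1a, Gapdh, Myod1 and Acta2). Of the fixed set Ppargc1a was not tested, with 3, 2 and 5 counts in butyrate against 0 in each control library. Genes outside the rule (Des, Cdh15, Dcn, Srf, Chrna1, Tpm4, Lamc1, Lamb1, the T-box, forkhead and ETS factors, Tnnt1, Myog, Myh3, Ttn, Acvr1, Acvr2a, Chrd, Chrdl1, Ly6c1, Ly6f, Gstt1 and Mif) were chosen after their values were seen, except the markers. Promoter windows are RefSeq's for GRCm38.p6. Alternatives covered the scaling, the filter, DESeq2 1.42.0, the replicate block, the 6 libraries alone and each library left out. The script was tested on simulated counts first. A few genes of the lists are not reported here by name.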

Additional observations from a re-analysis of the deposited data

How the results depend on the processing

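The number of called genes differed between settings. It was 1601 as reported (905 higher, 696 lower), 2916 (1516 and 1400) with the replicate block, 1004 with the 6 libraries alone, of which 348 were lower, and 999 (572 and 427) with a minimum mean of 5 CPM. Over the fits without 1 library each, it ran from 753 to 2285, with 544 to 1243 higher and 209 to 1042 lower; the lowest counts came without butyrate 2 and the highest without control 3, and the cause was not tested. DESeq2 size factors (1566), upper-quartile scaling (1543), no filter (1708) and the DESeq2 Wald test (2046) stayed within 1.5 times. Of 269 named genes that were called, 143 were called in each fit without 1 library and 193 in all other alternatives; all 269 were called with the replicate block, which changed no call among them, 267 by the DESeq2 Wald test, 246 with upper-quartile scaling, 201 with the 6 libraries alone, and 184 with the 5 CPM minimum, where 62 were not tested. Without the filter on low counts, Ogn, Hmga1, Cxcl5, Igf2bp2 and Igfbp5, which were called in each fit without 1 library, were not called (adjusted p = 0.0627 to 0.0859). Hdac11, not called as reported, was called higher with the replicate block (adjusted p = 0.0199), without the filter, without control 1 and by the DESeq2 Wald test. The direction turned in 6 named genes, none of them called. The log2 change of Hdac4 (-0.01 as reported) was 0.0015 with DESeq2 size factors, 0.042 with upper-quartile scaling, 0.029 with the 5 CPM minimum, 0.0016 by the DESeq2 Wald test and -0.090 to 0.083 over the fits without 1 library; the log2 change of Hdac5 (-0.05) was 0.0022 with upper-quartile scaling and -0.13 to 0.035 without 1 library; the log2 change of Acads (-0.04) was 0.016 with upper-quartile scaling, 0.0028 with the 5 CPM minimum and -0.077 to 0.022 without 1 library. Without 1 library, the log2 change of Hdac6 (0.02) was -0.018 to 0.056, the log2 change of Hdac7 (0.13) was -0.012 to 0.22 and the log2 change of Hdac9 (-0.33) was -0.85 to 1.25. The promoter content of called genes was not compared, since windows were at hand for 78.3% of the protein-coding genes tested (75.6% of the raised and 75.2% of the lowered), under the 80% needed. Genes under 1 CPM rest on few reads.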

Other observations

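Protocadherins are adhesion molecules, and those of the gene clusters are known to give neurons their surface identity. Of 27 protocadherins tested (68 listed), 6 fell and 2 rose (1 higher and 6 lower without control 3). Pcdhgc3 had 121, 111 and 112 CPM in butyrate, against 189, 175 and 146 CPM in control (log2 change -0.57, SE 0.10, adjusted p = 0.00545). Pcdhb17 had 8.75, 6.65 and 7.53 CPM in butyrate, against 13.7, 13.9 and 15.2 CPM in control (log2 change -0.90, SE 0.16, adjusted p = 0.00512). Pcdh1, which lies outside the clusters, had 62.9, 82.4 and 76.5 CPM in butyrate, against 27.1, 29.2 and 29.03 CPM in control (log2 change 1.38, SE 0.11, adjusted p = 0.000124), and so went the other way without overlap. Members of the beta cluster resemble each other, and reads may be shared between them. Among 204 solute carriers, the thiamine carrier Slc19a2 had 44.1, 52.5 and 40.96 CPM in butyrate, against 19.97, 27.9 and 28.1 CPM in control (log2 change 0.86, SE 0.15, adjusted p = 0.00512). The potassium-chloride cotransporter Slc12a7 had 121, 110.0 and 104 CPM in butyrate, against 163, 175 and 158 CPM in control (log2 change -0.57, SE 0.09, adjusted p = 0.00263). Slc11a2, which carries iron into cells, had 71.9, 65.7 and 62.8 CPM in butyrate, against 95.9, 95.2 and 92.1 CPM in control (log2 change -0.50, SE 0.09, adjusted p = 0.00450), beside the rise of both ferritin chains. Among 66 heat shock and DNAJ proteins tested 1 rose and 2 fell (4 higher and 5 lower with the replicate block, and 3 higher and 3 lower without control 3); the one that rose, Dnajc22, had 4.29, 4.35 and 4.16 CPM in butyrate, against 0.757, 0.782 and 0.907 CPM in control (log2 change 2.38, SE 0.22, adjusted p = 0.000223).

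Counts of other groups stood beside a background of 6.43% higher and 4.95% lower. Of 26 immediate early and AP-1 genes 2 rose and 1 fell (5 higher and 5 lower with the replicate block). Of 29 genes of the unfolded protein response 3 rose and 2 fell (5 higher and 4 lower with the replicate block, and 5 higher and 1 lower without control 3), and of 29 apoptosis regulators 1 rose and 2 fell (4 higher and 6 lower with the replicate block, and 1 higher and 1 lower without control 3). Zinc finger protein genes had smaller shares, with 5 of 326 higher (1.53%) and 7 lower (2.15%) and a median log2 change of -0.15 (11 higher and 23 lower with the replicate block, and 7 higher and 17 lower without control 3). Of 26 factors and targets of YAP and TEAD 2 fell (0 higher and 4 lower with the replicate block, and 0 higher and 5 lower without control 3), and of 20 Hox genes tested (39 listed) 2 rose (2 higher and 1 lower with the replicate block, and 1 higher and 1 lower without control 3). Hoxa13, a factor of distal limb and genital development, had 2.996, 2.9002 and 2.65 CPM in butyrate, against 0.699, 1.01 and 1.49 CPM in control (log2 change 1.42, SE 0.29, adjusted p = 0.0105). Markers of adipocytes summed to 37.9 to 45.1 CPM in butyrate and 47.8 to 53.6 CPM in control, markers of bone and cartilage to 138 to 152 CPM in butyrate and 156 to 170.1 CPM in control, and markers of endothelium and epithelium to 14.3 to 26.7 CPM in butyrate and 13.9 to 40.8 CPM in control.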
